A study of Mus musculus with 20 samples.

Results

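The cells described here are macrophages of mouse interscapular brown adipose tissue that carried transcripts of Mgl2, Lilra5, Slco2b1 and Vcam1 together with the complement genes C1qa and C1qb. They were picked cell by cell from single-cell RNA sequencing of the lineage-positive (Lin+, mostly immune) fraction of the stromal vascular cells. A barcode was a member when its counts for Mgl2, Lilra5, Slco2b1 and Vcam1 summed to at least 3 and those for C1qa and C1qb to at least 3, with a sum under 2 for Lyve1, Cd209f, Cd209g and Fcna, under 4 for Gpnmb, Trem2, Atp6v0d2 and Syngr1, and under 1 for Cd79a and Cd3e. These 16 genes chose the members, so their own levels are given as description only. In all, 1937 cells were members, which was 3.86% of the 50165 Lin+ barcodes that had under 10% mitochondrial counts, under 15000 total counts and 500 to 4000 genes. They made up 17.5% of the 11084 C1q macrophages, meaning cells past the C1qa and C1qb limit and free of the lymphocyte genes.

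The study exposed mice to cold or to the ADRB3 agonist CL316,243 and profiled the cells that surround the brown adipocytes. Male C57BL/6J mice lived at room temperature (RT, 24 °C), in the cold (COLD, 6 °C, 4 days) or with an osmotic pump that delivered CL316,243 at 0.75 nmol per hour for 4 days (CL), and each of these groups had 2 Lin+ libraries. A second line of female mice carried floxed Adrb1 either without Cre (WT, Adrb1 fl/fl; Pdgfra-CreER -/-) or with it (KO, Adrb1 fl/fl; Pdgfra-CreER +/-), and WT and KO each gave 1 library at RT and 1 after 4 days of cold. Mice were 8 to 14 weeks old and were pooled by 3 or 4 for each library. Both WT and KO received tamoxifen for 5 days, 2 to 3 weeks before the cold. The Cre, the tamoxifen-activated CreERT2, is driven by Pdgfra, a gene of stromal cells, so the deletion in KO mice was aimed at stromal cells and not at macrophages. All libraries used version 2 of the droplet kit except the 2 RT libraries of the Adrb1 line, made with version 3. The paper states that the treatments of that line were also collected on different days. Kit, collection day and temperature therefore cannot be told apart within that line. A p-value over libraries measures the spread between these pools.

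Resident macrophages of adipose tissue clear dying cells, lipid and iron and present antigen to T cells. Mgl2 encodes CD301b, a galactose-binding lectin of macrophages and dendritic cells, and Vcam1 encodes an adhesion protein that binds integrins of leukocytes and that erythroid-island and other tissue macrophages also display. Slco2b1 is an organic anion transporter and Lilra5 an activating immune receptor. C1q, the first component of complement, is made largely by tissue macrophages.

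Mgl2 carried most of the signature. It was detected in 93.2% to 99.3% of members of each library and supplied 63.6% to 88.4% of the signature counts, whereas Vcam1 was detected in 11.7% to 49.7% of members, Lilra5 in 10.0% to 66.3% and Slco2b1 in 20% to 70.9%. In the C57BL/6J mice, Vcam1 was found in 45.8% and 25.6% of members at RT and in 11.7% and 17.5% after cold. The Adrb1 line showed no such fall, with 22.0% at RT and 49.2% after cold in WT, and 49.7% and 49.0% in KO. The name Mgl2 Vcam1 macrophages therefore holds for Mgl2 in nearly every cell and for Vcam1 in a minority. The general macrophage genes were present throughout, with Csf1r, the receptor for the growth factor CSF1, at 335 to 975 CPM (counts-per-million of the summed member counts) and Lyz2, lysozyme, at 8558 to 17960 CPM. Mgl2 is shared with dendritic cells, whose marker sum ran from 503 to 820 CPM over the libraries, and monocyte markers summed to 779 to 2363 CPM.

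Of 3336 cells past the signature limit, 802 lacked C1q, 73 were lost to the lymphocyte genes, 292 to the Lyve1 sum alone, 199 to the Gpnmb sum alone and 33 to both sums. The signature sum put 295 members just inside its limit of 3 and left 368 cells just outside it. The limit on Gpnmb, Trem2, Atp6v0d2 and Syngr1 removed unequal shares. It took 0.70% and 0.81% of the cells past signature and C1q in the C57BL/6J RT libraries, 35.2% in either COLD library, and 26.0% and 15.4% in the CL libraries. Shares without this limit follow those under it.

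Members were scarcer after cold in every pair of libraries. In the C57BL/6J mice they made up 9.11% and 12.3% of Lin+ cells at RT (371 and 550 cells) and 0.78% and 0.65% after cold (60 and 40 cells). In WT mice the share was 4.45% at RT and 1.44% after cold, and in KO mice 8.15% and 2.79%. The highest cold library lay below the lowest RT library. Over both lines the mean was 8.50% ± 3.23 (SD, n = 4) at RT and 1.42% ± 0.98 (n = 4) after cold, which is 6.00-fold lower (two-sided exact permutation test over libraries, p = 0.0286, which no split of 4 and 4 can go below). This test shuffled libraries across both lines and ignored line, genotype and pairing. Shuffles kept within lines or pairs are fewer, so their smallest possible p is larger. The fold was 14.9 in the C57BL/6J libraries and 2.98 in the Adrb1 line, where an exact permutation test of 2 against 2 libraries cannot go below p = 0.333. Under CL the libraries held 2.11% and 5.12% members, 2.96-fold below RT on average (exact permutation test, p = 0.333). A lower share cannot tell fewer members from more of the other cells, or from cells whose transcripts no longer met the rule.

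**Figure D1:**
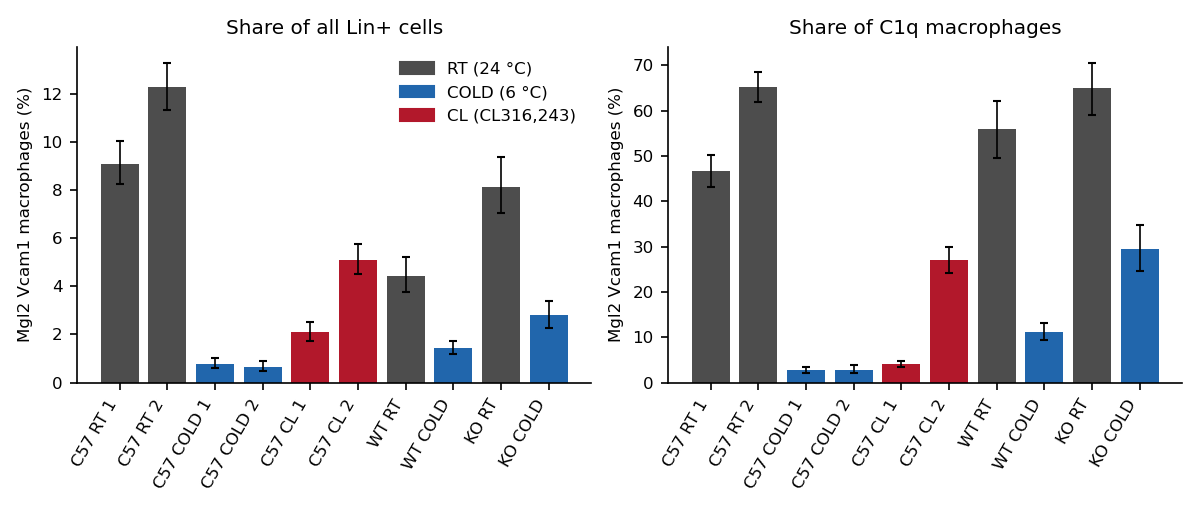
Members as a percentage of Lin+ cells (left) and of C1q macrophages (right) in each of the 10 libraries, coloured by treatment, with bars of the 95% exact binomial interval, which covers counting error only. All 4 RT libraries lie above all 4 COLD libraries in both panels.

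The same order held within the C1q macrophages. Members were 46.7% and 65.2% of them in the C57BL/6J RT libraries, 2.72% and 2.84% after cold, and 4.04% and 27.1% under CL. In WT mice they went from 56.0% at RT to 11.2% after cold, and in KO mice from 64.9% to 29.5%. The mean over both lines was 58.2% ± 8.77 at RT and 11.6% ± 12.6 after cold (n = 4 each, exact permutation test, p = 0.0286). Line, genotype and pairing were ignored in this test too. C1q macrophages as a whole were 14.7% ± 5.49 of Lin+ cells at RT and 18.5% ± 8.91 after cold (exact permutation test, p = 0.457). Without the limit on the Gpnmb group, members were 9.16% and 12.4% of Lin+ cells at RT, 1.26% and 1.03% after cold and 2.96% and 6.18% under CL in the C57BL/6J mice, and the cold fold there was 9.42 in place of 14.9. In WT mice they then went from 4.55% to 1.64% and in KO mice from 8.33% to 2.99%. As a share of C1q macrophages they were 47.0% and 65.8% at RT, 4.39% and 4.48% after cold and 5.66% and 32.6% under CL in the C57BL/6J mice, and went from 57.1% to 12.7% in WT and from 66.3% to 31.6% in KO. Median counts per member were higher in the C57BL/6J COLD libraries than at RT. With every cell thinned to 1000 counts, the C57BL/6J shares were 4.03% and 5.17% at RT, 0.20% and 0.14% after cold, and 0.64% and 1.40% under CL, a cold fold of 27.2. Of the lymphocytes in each library, 0% to 0.98% passed the signature and C1q limits. In the C57BL/6J COLD libraries 0.44% (1 of 228) and 0% (0 of 266) passed, where members were 0.78% and 0.65% of Lin+ cells. Lymphocytes had median counts of 1069 to 2853 per cell, against 3485 to 8143 in members. The share that would pass at the depth of members was not tested.

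Median counts per member ran from 3485 to 8143 and median genes from 1374 to 2602, both highest in C57BL/6J COLD replicate 2, and the summed member counts per library were 304408 to 2258770. Between 6.15% and 14.2% of members stood in the top 6% of doublet scores of their library. Transcripts of other cells were present after the authors' correction for free RNA, with marker sums of 30.6 to 7504 CPM for neutrophils, 3.9 to 10338 CPM for erythroid cells, 153 to 454 CPM for B cells and 10.8 to 124 CPM for adipocytes. T cell, NK cell, stromal and endothelial markers each summed to at most 172 CPM. Of the member barcodes, 1 occurred in a pair of libraries.

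Levels in members were set beside those of the other named macrophages of the same library. Lyve1 macrophages (739 cells) passed the Lyve1 limit that members had to fail, and every library held at least 20 of them. The classes were drawn by the same kind of rule, so these ratios have no test. Among genes outside the rule that were higher in members in all 10 libraries, Cx3cr1, the fractalkine receptor, led with a median log2 ratio of 2.78 and with 134 to 379 CPM in members against 6.38 to 90.3 CPM. The cyclin gene Ccnd2 followed at 2.65, Cd72 at 2.49 and the efferocytosis receptor Axl at 2.33. Chemokine Ccl4 stood at 436 to 3182 CPM in members and 117 to 761 CPM in Lyve1 macrophages. The MHC class II genes Cd74, H2-Eb1 and H2-Ab1 had median log2 ratios of 1.89, 1.86 and 1.84, although all 3 were listed at 0 in Lyve1 macrophages of at least 1 library after the authors' correction.

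Several lectin and scavenger genes were lower in members than in Lyve1 macrophages in all 10 libraries. The lectin gene Cd209d had a median log2 ratio of -4.07, with 3.62 to 25.7 CPM in members against 118 to 676 CPM. Ednrb, the endothelin B receptor, stood at -3.99. Folate receptor gene Folr2 reached 78.0 to 916 CPM in members and 945 to 2090 CPM in Lyve1 macrophages. F13a1, coagulation factor XIII, had a ratio of -2.29 and Timd4, a receptor for phosphatidylserine on dying cells, one of -2.27. The chemokine genes Ccl24 and Ccl8 were also lower in members in every library.

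Against the Gpnmb Trem2 macrophages (lipid-associated, 4328 cells), 6 libraries had at least 20 cells of each class. All 6 were COLD or CL libraries, since the RT libraries held only 6 to 16 Gpnmb Trem2 macrophages. Members at RT are therefore not part of the ratios and ranges that follow. Members had more MHC class II transcript, with median log2 ratios of 2.60 for H2-Eb1, 2.51 for H2-Ab1 and 2.40 for H2-Aa, and more Tmem176b, a membrane protein of antigen-presenting cells, at 2.67. They had far less Fabp5, a fatty acid binding protein, with 2.96 to 376 CPM against 1293 to 4486 CPM and a median log2 ratio of -5.23. Spp1, osteopontin, stood at 18.6 to 206 CPM in members and 759 to 3820 CPM in Gpnmb Trem2 macrophages. The lysosomal protease genes Ctsl, Ctsk and Ctsd had ratios of -2.88, -2.87 and -2.29.

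**Figure D2:**
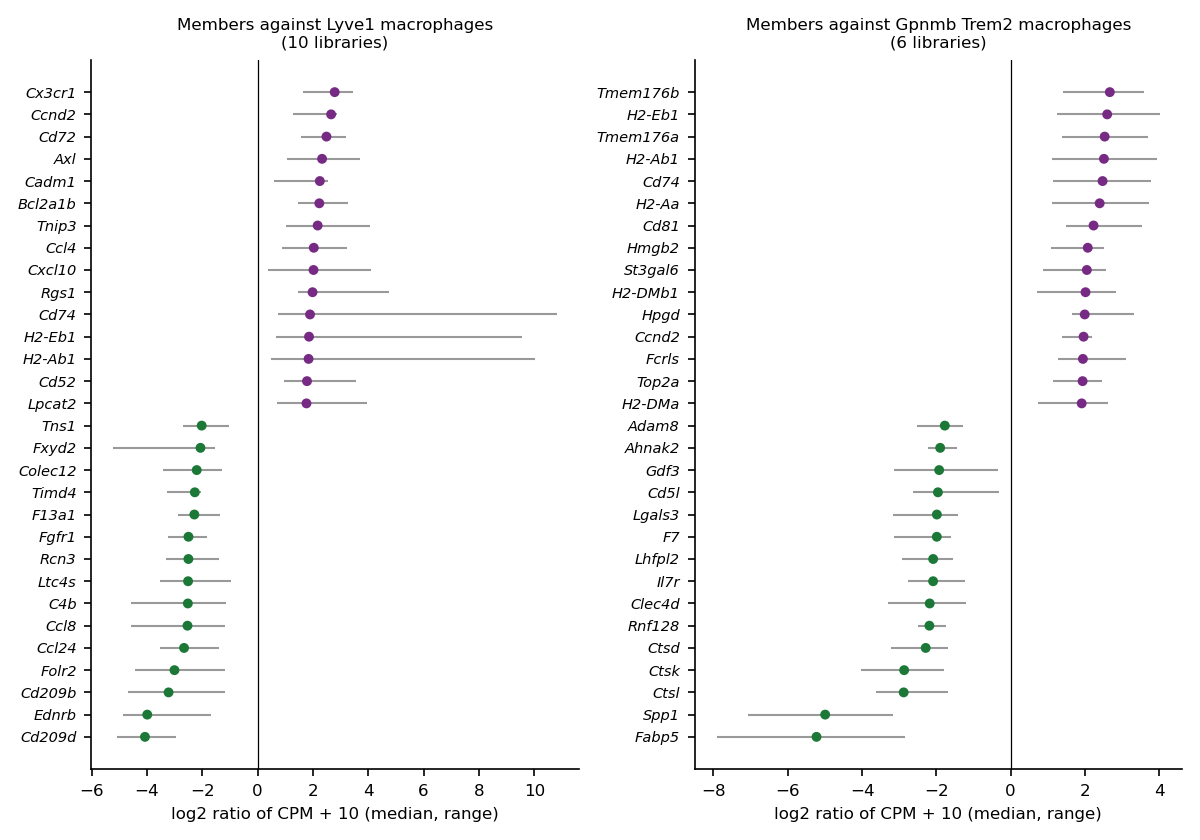
Log2 ratio of CPM + 10 in members over Lyve1 macrophages (left, 10 libraries) or over Gpnmb Trem2 macrophages (right, the 6 COLD and CL libraries) for the 15 named genes in each direction. Points are the median over libraries and lines run from the lowest to the highest library, and no line crosses 0, since the same sign in every library was part of how these genes were chosen.

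Transcripts of the members differed between cold and RT. The rule was applied anew in each library, so a change within the same cells and other cells meeting the rule cannot be told apart. In the C57BL/6J libraries, counts of all members of a library were summed and tested with edgeR over RT, COLD and CL, and of 7963 genes tested 776 passed an adjusted p of 0.05 between COLD and RT, 387 higher and 389 lower, or 9.75% of those tested. The median log2 fold change of all genes was -0.03. COLD sums rest on 60 and 40 cells, 54 genes were called when each cell was thinned to 1000 counts, and COLD and CL were both compared with the same RT libraries. Fewer genes were also called with any RT or COLD library left out.

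Cell cycle genes rose. Of the 20 on the list, 17 were higher after cold (4.86% of all genes were called higher) and none lower, with a median log2 fold change of 1.60. Birc5, which acts in chromosome segregation, stood at 30.1 and 28.1 CPM at RT, 261 and 133 CPM after cold, and 332 and 106 CPM under CL. Both COLD libraries and both CL libraries exceeded both RT libraries, and the COLD over RT log2 fold change was 2.56 ± 0.42 (SE, adjusted p = 0.0044). Top2a, DNA topoisomerase, went from 48.4 and 25.6 CPM to 235 and 152 CPM (2.22 ± 0.46, adjusted p = 0.013). The replication helicase genes Mcm2, Mcm3, Mcm5 and Mcm6 rose by 1.08 to 1.43 on the log2 scale. Pcna, a replication clamp, had values of 111 and 79.8 CPM at RT and 78.9 and 96.5 CPM after cold, and did not pass the test. Hmmr, a mitotic spindle gene outside the list, rose by 2.88 ± 0.62.

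Counted cell by cell, members with at least 3 counts over 9 mitotic genes were 3.77% and 2.73% at RT, 30.0% and 25% after cold, and 23.5% and 8.81% under CL in the C57BL/6J mice. In WT mice the share went from 1.42% to 22.9%, and in KO mice from 1.68% to 12.2%. The cold libraries were all above the RT libraries. Thinned to 1000 counts per cell, the C57BL/6J shares were 2.17% and 1.82% at RT, 11.7% and 10.0% after cold, and 12.7% and 4.98% under CL. At full depth, lymphocytes of the same libraries, which had fewer counts per cell than members, gave 0% to 3.38%. Lyve1 macrophages at full depth gave 0% to 2.13% at RT, 16% and 10.0% in the C57BL/6J COLD libraries and 15.2% and 5.36% under CL. Their full-depth share was 26.3% in WT COLD (of 38 cells) and 4.55% in KO COLD. At 1000 counts per cell, Lyve1 macrophages gave 4.17% and 0% in the C57BL/6J COLD libraries, 9.36% and 0% under CL and 0% in KO COLD. Thinned to 1000 counts, WT COLD gave 10.8% of Lyve1 macrophages (4 of 37 cells) and 11.9% of members (14 of 118), the opposite order of the values at full depth. The limit of 3 counts was chosen with these values known, so no test is given.

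Interferon response genes rose as well, 16 of 26 with none falling (4.86% of all genes were called higher) and a median log2 fold change of 1.18. Of the genes that rose, the study had named Isg15, Ifit3, Rsad2, Irf7, Ifi204 and Ifi209 for a cold-induced macrophage cluster of these samples. The direction of these genes is therefore no independent evidence. The list summed to 3623 and 4058 CPM at RT and 8667 and 10412 CPM after cold in C57BL/6J members, and went from 3661 to 4132 CPM in WT and from 3523 to 4776 CPM in KO. Over all Lin+ cells within the limits, it went from 3198 and 3490 CPM to 8097 and 8449 CPM in C57BL/6J mice. Over those cells it went from 3221 to 5808 CPM in WT and from 2959 to 10112 CPM in KO. The rise was therefore not particular to members. Irf7, the transcription factor that amplifies type I interferon, stood at 28.5 and 31.6 CPM at RT and 220 and 526 CPM after cold. It rose by 3.41 ± 0.37 (adjusted p = 0.00061), with no overlap between groups. Isg15, a ubiquitin-like modifier, went from 93.4 and 105 CPM to 567 and 480 CPM (2.19 ± 0.24). Ifit1, which binds viral RNA, went from 2.10 and 13.3 CPM to 115 CPM in both COLD libraries (3.52 ± 0.48). Ifit3 rose by 3.08 ± 0.36, though reads of Ifit3 and its close copy Ifit3b may be split between them. Cxcl9, Cxcl10 and Gbp2, genes that respond mainly to interferon gamma, had log2 fold changes of -1.39, -0.36 and -0.92 that did not pass the test.

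The promoters of the interferon genes that rose were searched on both strands for GAAA, any 2 bases and again GAAA, the core of the element bound by interferon-activated factors, from 250 bases before to 50 after the start site. Of the 16, 10 had a promoter in RefSeq sequences of GRCm38.p6, and 6 of those held the motif (Isg15, Ifit1, Ifit3, Ifit3b, Rsad2 and Bst2), against 3.99% of all 27025 promoters and 4.39% of those of genes tested. The stretch around the match is identical in Ifit3 and its close copy Ifit3b. The list was drawn up as interferon response genes, so these matches are no evidence on the cold. A match of letters is a description and not a bound site. For 4 of them, 1 match each is marked in capitals in the direction of the gene, with 10 bases on either side, to let the elements be compared. In Isg15 and Bst2 a further match overlaps the start of the capitals and is left partly in lower case. They lie at chr4:156200865-156200894 (minus strand), chr19:34640794-34640823 (plus), chr12:26456553-26456582 (minus) and chr8:71537577-71537606 (minus).
Isg15: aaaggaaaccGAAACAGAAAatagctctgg
Ifit1: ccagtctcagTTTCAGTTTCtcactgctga
Rsad2: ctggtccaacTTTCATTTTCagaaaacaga
Bst2: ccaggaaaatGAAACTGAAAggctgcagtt

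Lipid handling genes divided. Of 20 lipid handling genes, 6 rose and 2 fell, with a median of 0.42. Of those that rose, the study had named Spp1, Plin2, Ctsd and Mmp12 for a further cold-induced macrophage cluster of these samples. For these genes the direction is no independent evidence. Plin2, the coat protein of lipid droplets, stood at 90.5 and 164 CPM at RT, 711 and 896 CPM after cold and 464 and 534 CPM under CL, and rose by 2.46 ± 0.32 in the cold (adjusted p = 0.0015). Cathepsin gene Ctsd went from 244 and 238 CPM to 1461 and 1458 CPM (2.40 ± 0.34), and Lgals3, galectin-3, from 577 and 646 CPM to 3346 and 4357 CPM (2.46 ± 0.34). Spp1 rose by 3.87 ± 0.62 but from 5.56 and 7.90 CPM. Apoe, a carrier of cholesterol, fell from 12119 and 16993 CPM to 4619 and 4810 CPM (-1.82 ± 0.35, adjusted p = 0.0087), and the fatty acid receptor Cd36 fell by 0.97. Of 22 lysosomal genes 3 were called, near the 9.75% of all genes, with Ctsd and Gusb higher and Atp6v0c, a proton pump subunit listed at 0 in both COLD libraries, lower. Since members had to hold few Gpnmb, Trem2, Atp6v0d2 and Syngr1 transcripts, cells with the strongest lipid-associated profile were left out of these sums. Gpnmb Trem2 macrophages went from 0.27% and 0.36% of C57BL/6J Lin+ cells at RT to 19.3% and 15.6% after cold. Over all C57BL/6J Lin+ cells within the limits, the lipid list went from 10119 and 9976 CPM to 34281 and 28301 CPM. In members it summed to 19010 and 24078 CPM at RT and 19531 and 22421 CPM after cold. The part of free RNA from other cells was not tested.

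**Figure D3:**
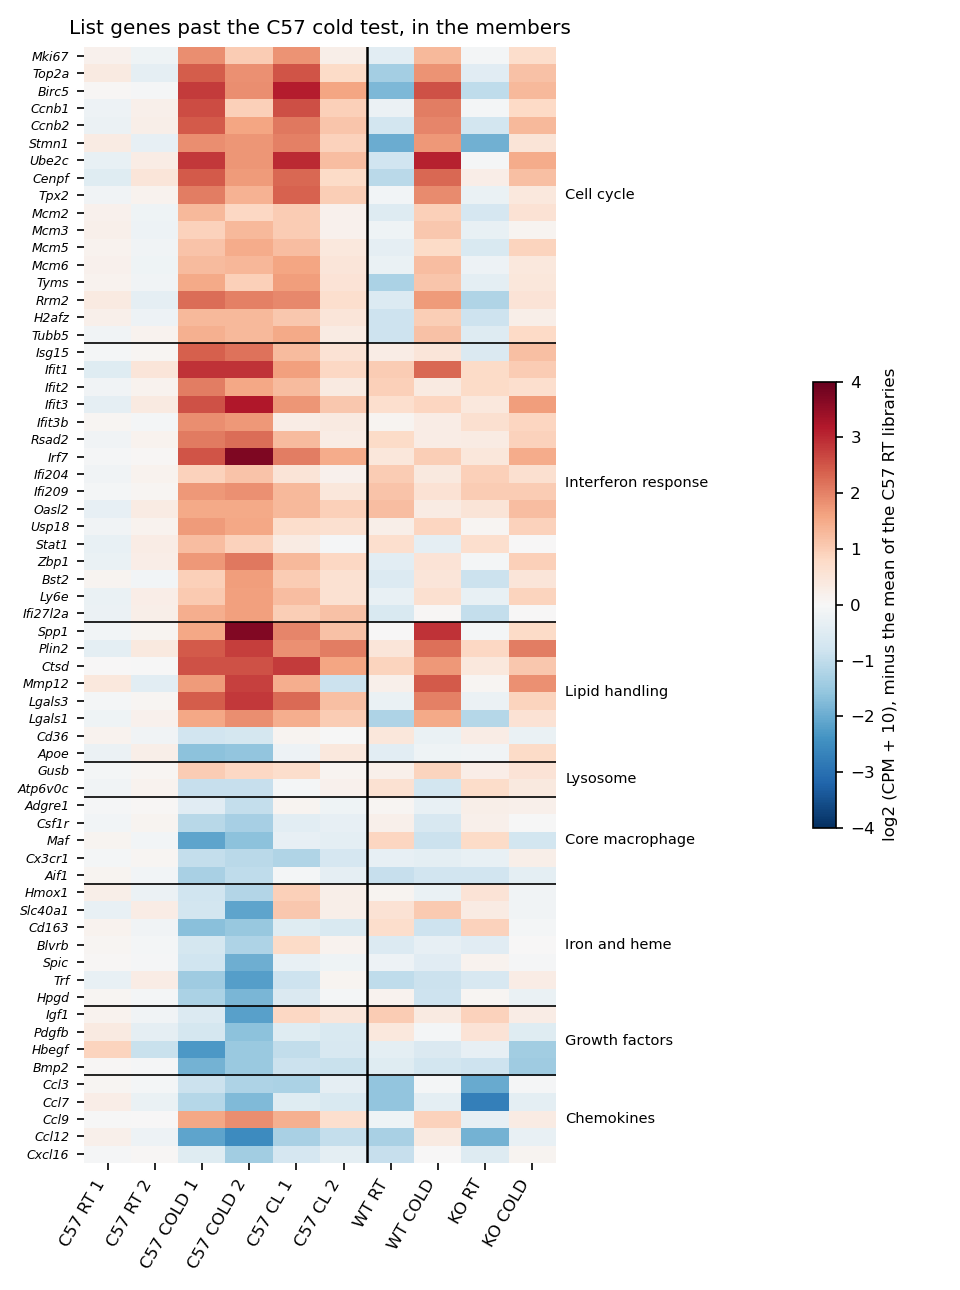
Levels in members of list genes that passed the C57BL/6J cold test, as a heatmap with one row per gene and one column per library, the C57BL/6J libraries left of the vertical line and those of the Adrb1 line right of it. Colour is log2(CPM + 10) minus the mean of the 2 C57BL/6J RT libraries, red higher and blue lower. Among the genes shown, those of the cell cycle and interferon lists were higher in both C57BL/6J COLD libraries than in both RT libraries, those of the core macrophage, iron and heme and growth factor lists were lower, and of the chemokines Ccl9 was higher and the others lower.

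Some core macrophage genes fell in the C57BL/6J libraries. Of 16 core macrophage genes 6 fell and none rose (4.89% of all genes were called lower), with a median log2 fold change of -0.76. Maf, a transcription factor that maintains resident macrophages, stood at 569 and 483 CPM at RT, 112 and 162 CPM after cold and 416 and 397 CPM under CL. It fell by 2.15 ± 0.28 (adjusted p = 0.0014). Csf1r went from 777 and 925 CPM to 386 and 335 CPM (-1.44 ± 0.27). Of the 6 genes of the resident profile that the study had chosen on these samples, which makes their direction no independent evidence, 5 fell (F13a1, Cbr2, Pf4, Gas6 and Mrc1). Mrc1, the mannose receptor CD206, went from 884 and 677 CPM to 340 and 198 CPM (-1.74 ± 0.30). Folr2 had 179 and 206 CPM at RT and 176 and 78.0 CPM after cold and did not pass the test. The profile summed to 7755 and 5746 CPM at RT and 2835 and 1734 CPM after cold. It did not have this order in the Adrb1 line, where it went from 5365 to 5440 CPM in WT and from 4667 to 5128 CPM in KO. The core list summed to 23708 and 30181 CPM at RT and 23497 and 24398 CPM after cold, and went from 19384 to 19555 CPM in WT and from 20612 to 28560 CPM in KO.

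Several scavenger and iron genes fell in the C57BL/6J libraries. Of 19 scavenger and efferocytosis receptors 6 fell and 1, Havcr2, rose (4.89% of all genes were called lower). Cd163, the receptor for hemoglobin bound to haptoglobin, went from 218 and 175 CPM to 54.3 and 62.3 CPM (-1.96 ± 0.26, adjusted p = 0.0017), and Stab1 from 279 and 256 CPM to 98.9 and 88.0 CPM (-1.71 ± 0.23). Of 15 iron and heme genes 7 fell and none rose, with a median of -1.17. Hmox1, heme oxygenase, fell by 1.23, the iron exporter gene Slc40a1 by 1.89 and Spic, a transcription factor of iron-recycling macrophages, by 2.23. The ferritin genes Fth1 and Ftl1 had log2 fold changes of 0.07 and 0.03. The summed level of the iron and heme list did not fall. It stood at 20732 and 20376 CPM at RT and 22401 and 22339 CPM after cold, and it went from 14544 to 23447 CPM in WT and from 16014 to 21985 CPM in KO. The scavenger list summed to 2947 and 2673 CPM at RT and 1798 and 1412 CPM after cold, and went from 4783 to 2558 CPM in WT and from 4650 to 2802 CPM in KO. Erythroid marker transcripts summed to very different levels among libraries (3.9 to 10338 CPM), and their part in the iron genes was not tested.

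Chemokine genes mostly had lower values after cold in the C57BL/6J libraries, and higher values in the Adrb1 line. The list summed to 15659 and 10780 CPM at RT and 10092 and 9519 CPM after cold in C57BL/6J members, whereas it went from 5947 to 13521 CPM in WT and from 4586 to 10472 CPM in KO. Of 14 tested, Ccl12, Ccl7, Ccl3 and Cxcl16 fell and Ccl9 rose (9.75% of all genes were called). Ccl12, a monocyte attractant, stood at 1574 and 1167 CPM at RT and 303 and 230 CPM after cold (-2.56 ± 0.33, adjusted p = 0.0013). Ccl7 went from 1393 and 960 CPM to 516 and 332 CPM (-1.68 ± 0.31). In the Adrb1 line both genes had the opposite order, Ccl12 going from 543 and 356 CPM to 1732 and 1092 CPM and Ccl7 from 382 and 166 CPM to 883 and 888 CPM. Platelet factor 4 (Pf4) behaved likewise, from 5780 and 3888 CPM at RT to 1767 and 1105 CPM after cold in C57BL/6J mice, but from 2074 and 1767 CPM to 4002 and 3600 CPM in the Adrb1 line.

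Of 10 cytokine genes 1 was called, near the 9.75% of all genes, with Tnf lower by 1.37 ± 0.29 on the log2 scale. Of 10 growth factor genes 4 fell and none rose. Igf1 went from 238 and 197 CPM to 145 and 40.3 CPM (-1.39 ± 0.37, adjusted p = 0.035), Bmp2 fell by 3.27 ± 0.55, and Hbegf and Pdgfb fell by 3.14 and 1.52. Adrb1, the beta-1 adrenergic receptor gene, was at 0 to 22.2 CPM and was not tested. Among the integrins that bind Vcam1 or its partners, Itgb7 and Itgb2 rose by 1.55 and 0.80 and Itga9 fell by 3.06.

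None of the 13 MHC class II presentation genes passed the test, and their median was -0.53. H2-Aa stood at 11902 and 16572 CPM at RT, 10664 and 10053 CPM after cold and 6210 and 11623 CPM under CL. Among complement genes C5ar1 fell, Cfp rose, and C1qc did not pass the test. Of 18 immediate early genes 4 fell (Egr1, Ier3, Ier5 and Zfp36), and of 11 heat shock genes Hspa1a, Hspa1b and Dnajb1 fell. Of 13 alternative activation genes, Mrc1, Cd163 and Stab1 fell. Over all genes tested, 4.89% were called lower. Monocyte, dendritic cell, T cell, NK cell, stromal, endothelial and erythroid markers had no gene past the threshold. The B cell genes Cd79b and Ighm and the neutrophil genes S100a9 and Csf3r fell, and the brown adipocyte gene Ucp1 rose from 4.16 and 1.76 CPM to 20 and 26.1 CPM. In the C57BL/6J libraries the neutrophil markers summed to 1688 and 2841 CPM at RT and 30.6 and 609 CPM after cold, with 2 of 4 tested called. The B cell markers summed to 336 and 363 CPM at RT and 190 and 153 CPM after cold, with 2 of 3 called, and Ms4a1 was at 0 in both COLD libraries. The adipocyte markers summed to 26.1 and 14.5 CPM at RT and 33.3 and 29.4 CPM after cold, with 1 of 2 called. The part of these other transcripts in the results was not tested.

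Of the called genes, 298 higher and 250 lower ones had a mean of at least 50 CPM in the higher group and libraries that did not overlap. Among these the largest rise was that of Ly6a, Sca-1, which interferon is known to induce and which the paper used as a marker of stromal cells. It was detected in 1.12% to 20% of the members of each library. The part of transcripts of other cells in its rise was not tested. Ly6a stood at 12.1 and 11.3 CPM at RT, 179 and 400 CPM after cold and 211 and 97.1 CPM under CL (COLD over RT 4.44 ± 0.43, adjusted p = 0.00039). Ass1, of arginine synthesis, rose by 3.76 ± 0.47, Ms4a4c by 3.07 ± 0.33, AA467197 by 3.13 ± 0.58, and annexin gene Anxa1 by 3.02 ± 0.28 from 60.4 and 67.2 CPM to 516 and 677 CPM. Among the largest falls, Mmp13, a collagenase, and G0s2, an inhibitor of lipolysis, were listed at 0 in both COLD libraries, against 148 and 76.8 CPM and 23.8 and 99.4 CPM at RT. A 0 can stand for counts that the authors' correction removed, so no fold is given. The Adrb1 line showed no such fall, with Mmp13 at 54.9 and 54.8 CPM at RT and 53.2 and 73.4 CPM after cold, and G0s2 at 172 and 143 CPM and 75.2 and 304 CPM. Dnase1l3, a secreted nuclease, went from 81.6 and 67.7 CPM to 0 and 6.48 CPM (-4.86 ± 0.69). Mepce, Cirbp, Gm20594, Bank1, Hspa1b and S100a9 fell by 3.38, 3.20, 3.11, 2.81, 3.36 and 3.31, and Bank1 and S100a9 are genes of B cells and neutrophils.

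The Adrb1 line was not used in that fit. Of the 387 genes higher after cold in C57BL/6J members, 299 (77.3%) had both cold libraries of the Adrb1 line above both of its RT libraries and 21 had the opposite order, whereas 32.1% of all genes tested had the first order. Of the 389 lower genes, 258 (66.3%) had both cold libraries below and 66 the opposite, against 41.5% of all genes. A single model over both lines (4 RT and 4 COLD libraries with line as a term) called 2497 of 7108 genes, or 35.1%, 1238 higher (17.4%) and 1259 lower (17.7%). WT and KO entered that model together as the Adrb1 line, with no term for genotype. Cell cycle genes numbered 19 of 20 higher, lipid handling 8 higher and 2 lower of 20, lysosome 7 higher of 21 and interferon response 13 higher and 1 lower of 25. Of 16 core macrophage genes 5 were lower, among them Maf, Csf1r, Mertk and Sirpa, and Cd68, a lysosomal membrane protein of macrophages, was higher (median -0.22). Of the 6 resident profile genes F13a1 and Mrc1 were lower. Of 13 chemokine genes Ccl6 and Ccl9 were higher and Ccl24 lower, with a median of 0.28. Iron and heme genes numbered 2 higher and 4 lower of 15, growth factors 1 higher and 4 lower of 10, and scavenger receptors 1 higher and 6 lower of 18. Counted in either direction, the called shares of the core macrophage, lysosome, iron and heme and scavenger lists were near the 35.1% of all genes. With the pairs of RT and COLD libraries as a block 1673 genes were called, and 19 of the list genes lost the call, among them Csf1r, Cd68, Ccl6, Igf1, Bmp2, Rsad2, Hmgcs1 and the lysosomal genes Ctsb, Grn and Hexa. Without the 2 version 3 libraries 1021 genes were called, and 29 named or list genes lost the call, among them AY036118, Fbxl18, Gm3448, Cd68, Mertk, Sirpa, Ccl24, Hmgcs1, Sc5d, Ctsb, Grn and Hexa. That fit has no RT library of the Adrb1 line, so its cold effect rests on the C57BL/6J libraries alone.

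In that model Ly6a rose by 4.33 ± 0.35 and Birc5 by 3.39 ± 0.47, with Birc5 at 1.15 and 9.40 CPM at RT and 220 and 85.8 CPM after cold in WT and KO. Pclaf, Cdc20, Ube2c, Cdca3, Asf1b and Ccna2, all genes of replication or mitosis, rose by 3.07 to 3.55. Plin2 rose by 2.07 ± 0.26 and Lgals3 by 2.21 ± 0.29, and Maf fell by 1.79 ± 0.24 and Mrc1 by 1.69 ± 0.24. Pla2g2d, a secreted phospholipase, Mmp9, a gelatinase, and Il1rl1, the receptor for IL-33, fell by 2.36, 2.29 and 2.27. AY036118, a noncoding gene at 1457 and 1464 CPM in the version 3 libraries and 28.0 to 95.2 CPM in the RT and COLD libraries of version 2, had the largest fall of the 527 lower genes that met the same limits, and Fbxl18, Chp2, Myh10, Abca9, Mepce and Gm3448 fell by 2.33 to 2.63. These 6 were also higher in both version 3 libraries (71.1 to 228 CPM) than in the version 2 RT libraries (25.5 to 63.0 CPM). Without the version 3 libraries Chp2, Myh10, Abca9 and Mepce passed the test, and Fbxl18, Gm3448 and AY036118 did not. In sterol synthesis and uptake 5 of 11 genes fell, among them Hmgcs1, Insig1, Sc5d and Srebf2, and 8 of 18 immediate early genes fell (17.7% of all genes were called lower). As given above, Hmgcs1 lost the call with the block, and Hmgcs1 and Sc5d lost it without the version 3 libraries.

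CL316,243 called fewer genes, 53 of 7963 (0.666%), 42 higher (0.527%) and 11 lower (0.138%). With the replicate experiment as a block 136 were called, 87 higher and 49 lower. Ly6a rose by 3.50 ± 0.42 (adjusted p = 0.0066). Ednrb, a gene of Lyve1 macrophages, went from 6.32 and 5.74 CPM to 155 and 28.3 CPM (3.50 ± 0.61), and the elastase gene Cela1 rose by 3.21 ± 0.52. Birc5, Ccnb2, Cdk1, Ube2c and Tpx2 of the 20 cell cycle genes rose, and the list median was 1.38. The lipid genes Plin2, Ctsd and Lgals3 rose by 1.83, 2.15 and 1.64. Folr2 stood at 916 and 472 CPM and rose by 1.64 ± 0.31 (adjusted p = 0.040), and the chemokine gene Ccl8 at 2850 and 859 CPM, against 396 and 234 CPM at RT, rose by 2.32 ± 0.42. CL replicate 1 was the higher of the pair for each of Ly6a, Ednrb, Birc5, Folr2 and Ccl8.

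The fall under CL was largest for Cxcl9, a T cell attractant, from 95.9 and 177 CPM to 7.78 and 0.656 CPM (-5.77 ± 0.87, adjusted p = 0.020). Dnase1l3, Hspa1b and Pla2g2d fell by 3.33, 2.17 and 2.15. Itga9 fell by 1.81, and Clec10a, a lectin gene next of kin to Mgl2 whose reads may be shared with it, rose by 1.08. Irf7 was the 1 interferon gene of 26 that was called higher. The median log2 fold change of the interferon list under CL was 0.70. The list summed to 3623 and 4058 CPM at RT and 6498 and 5637 CPM under CL. Ecm1, Tk1, Prc1, Tpx2, Cdk1 and Ube2c rose by 2.37 to 2.76, and Rpl9-ps6, Rpl27-ps3, Hexim1, Rps12, Skil and Rpl10-ps3 fell by 1.29 to 1.66. Leaving out RT replicate 1 left 0 genes called by edgeR (455 at an unadjusted p under 0.05), leaving out CL replicate 1 left 24, and leaving out CL replicate 2 gave 375.

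Whether members answered cold differently from Lyve1 macrophages was tested by the interaction of class and treatment in the C57BL/6J libraries, which called 66 of 6074 genes (1.09%), 28 with a higher (0.461%) and 38 with a lower (0.626%) response in members. Cd209a, a lectin, stood at 68.3 and 68.2 CPM at RT and 84.3 and 116 CPM after cold in members, and at 271 and 264 CPM and 29.5 and 5.99 CPM in Lyve1 macrophages (difference of log2 fold changes 4.19 ± 0.52, adjusted p = 0.00011). Rgs2, a brake on G protein signalling, had a difference of 2.47 ± 0.31 and Tnfsf9 one of 2.81 ± 0.38. Ccl12 fell in members and stood at 750 and 547 CPM at RT and 1119 and 508 CPM after cold in Lyve1 macrophages (-2.65 ± 0.27). Ccl7, Hmox1, Pf4 and Wfdc17 had differences of -2.15, -1.97, -2.05 and -1.84. As given above, Ccl12, Ccl7 and Pf4 had the opposite order in members of the Adrb1 line, which this test did not include. Hmox1 had 518 and 386 CPM at RT and 1144 and 618 CPM after cold in Lyve1 macrophages. Genes with a higher response in members included the erythroid markers Hba-a1, Hba-a2, Hbb-bs and Hbb-bt and the neutrophil gene S100a8. The part of such transcripts of other cells in this term was not tested. Lyve1 macrophages of the COLD libraries numbered 50 and 20 cells.

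**Figure D4:**
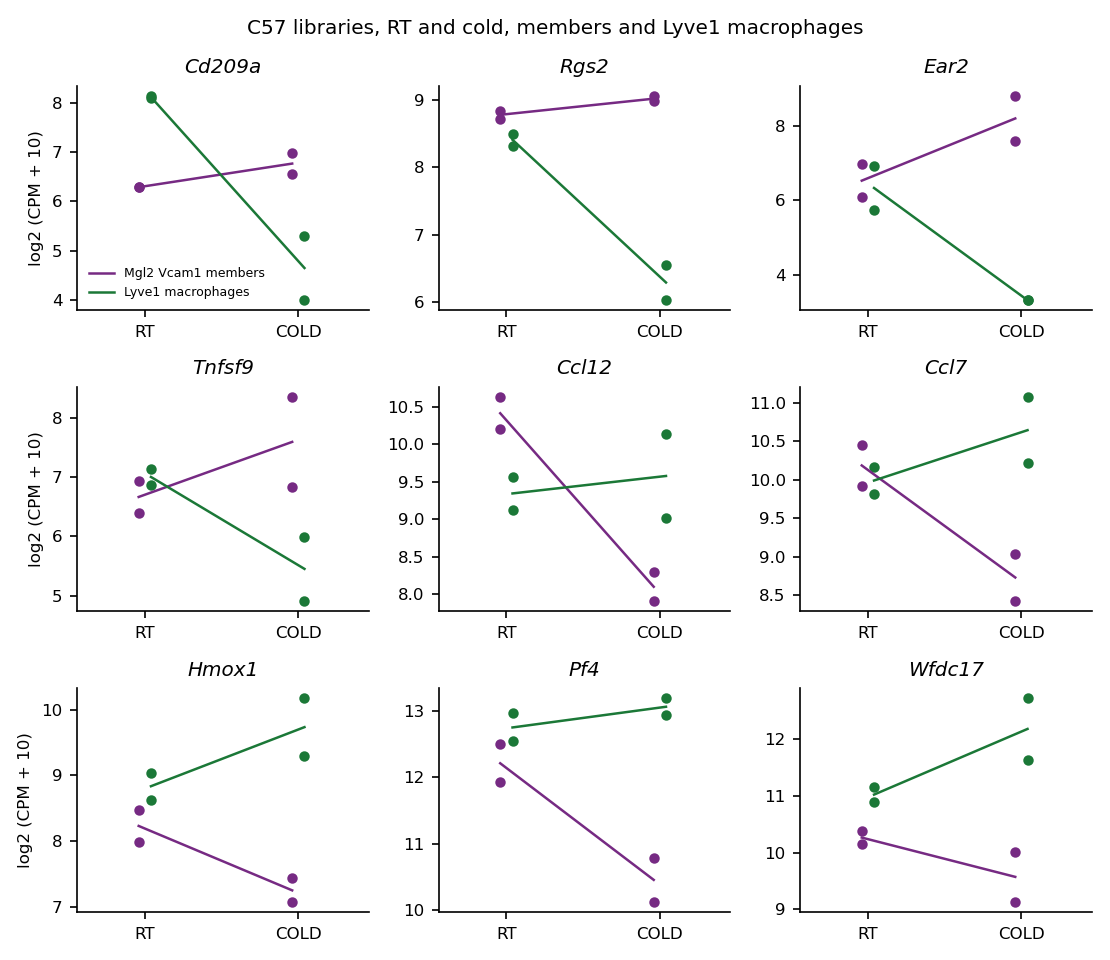
Log2(CPM + 10) of 9 named genes whose cold response differed between members (purple) and Lyve1 macrophages (green), with a point for each C57BL/6J RT and COLD library and lines joining the group means. Hbb-bs, a hemoglobin gene that the same rule named, is not drawn. For Ccl12, Ccl7, Hmox1, Pf4 and Wfdc17 both COLD libraries lie below both RT libraries in members and not in Lyve1 macrophages.

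MHC class II content divided the members of some libraries. The median of the summed H2-Aa, H2-Ab1, H2-Eb1 and Cd74 counts per 10000 counts of a member ran from 137 in WT COLD and 189 in C57BL/6J CL replicate 1 to 923 in C57BL/6J RT replicate 2. Members under 50 per 10000 were 31.1% of C57BL/6J CL replicate 1 and 36.4% of WT COLD, against 15% and 10.0% in the C57BL/6J COLD libraries, 3.83% in CL replicate 2, 6.12% in KO COLD and 0.18% to 2.13% at RT. Of all members, 118 were under this limit and 60 were at exactly 0, which depends on the authors' subtraction of free RNA. In CL replicate 1 the low members had 1352 CPM of Folr2 and the members above 300 per 10000 had 521 CPM, and in WT COLD the values were 249 and 29.7 CPM. Pf4 was 5959 and 2036 CPM in CL replicate 1 and 8175 and 1406 CPM in WT COLD, whereas the monocyte receptor gene Ccr2 was 108 and 545 CPM, and 63.2 and 413 CPM. Cycling cells were 40.5% of the low and 16% of the high members in CL replicate 1, and 30.2% and 13.6% in WT COLD. Transcripts of other cells also differed between low and high members. In WT COLD Hbb-bs, beta-globin, was at 7786 CPM in the low members and listed at 0 in the high ones, and S100a8, a neutrophil gene, at 359 and 8.76 CPM. In CL replicate 1 Hbb-bs was listed at 0 in the low and at 510 CPM in the high members, and Fabp4, an adipocyte gene, at 37.5 and 934 CPM. The part of free RNA and its subtraction in this split was not tested. The limits were set with these values known, and no test is given.

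**Figure D5:**
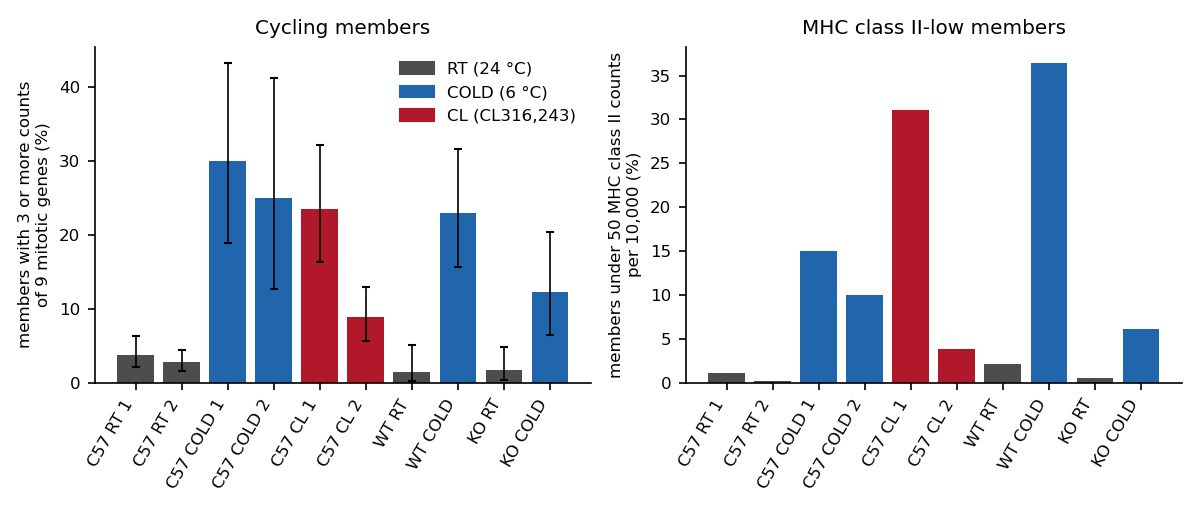
Percentage of members with at least 3 counts over 9 mitotic genes (left, with the 95% exact binomial interval) and percentage of members with under 50 MHC class II counts per 10000 (right, without intervals), by library and coloured by treatment. Every COLD and CL library has a higher share of cycling members than every RT library, and class II-low members are most frequent in C57BL/6J CL replicate 1 and WT COLD.

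WT and KO had 1 library for each temperature, so their values stand side by side with no test. Members were 8.15% of Lin+ cells in KO and 4.45% in WT at RT, and 2.79% and 1.44% after cold. After cold, Birc5 stood at 85.8 CPM in KO and 220 CPM in WT, Spp1 at 18.6 and 115 CPM, and Lgals3 at 1139 and 2474 CPM. Irf7 had 102 CPM in KO and 69.1 CPM in WT, and H2-Aa 11629 and 6534 CPM. With 1 library of each kind these differences have no replicate check.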

How the data were processed

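Single-cell RNA sequencing of 10 Lin+ libraries was used, and the Lin- libraries were not used here. The deposited values are estimated counts of unique molecules per gene and cell: the authors counted reads with Cell Ranger 3.0.1 on mm10, per the labels' processing notes, and subtracted free RNA with SoupX, naming Fabp4 and Car3 as the genes that are not expressed, so values are not whole and a 0 can stand for removed counts. Lin+ cells had been separated by magnetic beads against lineage antigens (CD5, CD11b, B220, Gr-1, 7-4 and Ter-119). The members and gene lists were chosen with earlier results of these data known. Counts of all members of a library were summed, rounded and tested with edgeR 4.0.16 (R 4.3.3), using its quasi-likelihood test, TMM normalization, the filterByExpr filter, and Benjamini-Hochberg adjustment over all genes tested at 0.05. Standard errors were taken from the log2 fold change and the F statistic. DESeq2 1.42.0 was an alternative. Shares were compared with two-sided exact permutation tests (scipy 1.17.1), with exact 95% binomial intervals that cover counting error only. Log2 ratios between classes used CPM plus 10. Named genes were the 10 with the largest rise and the 10 with the largest fall in each comparison among those past the threshold with a mean of at least 50 CPM in one group and libraries that did not overlap, 15 in each direction between classes, 5 in each direction for the class by treatment term, and called genes of the lists. No cell was removed as a doublet. Scrublet in scanpy 1.11.5 scored them, and leaving out the top 6% was an alternative. On simulated counts the C57BL/6J cold test recovered 34% of genes changed by 1 and 93% of those changed by 2 on the log2 scale. The changed genes were drawn from those above 50 CPM, and all genes were given the same spread. The recovery of lower genes, or of genes with a wider spread, was not simulated. Other alternatives were RLE scaling, no low-count filter, a signature sum of at least 4, thinned cells, each library left out and a replicate block. The study's methods tie the replicate number of the C57BL/6J libraries to an experiment, so the numbers pair these libraries. Deviations of same-numbered libraries from their group means correlated at 0.039 (RT and COLD), 0.050 (RT and CL) and 0.154 (COLD and CL) over genes, and the fits given first leave the block out. Some genes of the lists are counted but not reported here by name.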

Additional observations from a re-analysis of the deposited data

Results flagged for a closer look

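The cold response of members differed from that of Lyve1 macrophages for 10 named genes by the class by treatment term. That term used the C57BL/6J libraries alone, and members of the Adrb1 line had Ccl12, Ccl7 and Pf4 higher after cold than at RT. The difference of log2 fold changes (members minus Lyve1 macrophages) was 4.19 for Cd209a, 2.47 for Rgs2, 2.81 for Tnfsf9, -2.65 for Ccl12, -2.15 for Ccl7, -1.97 for Hmox1, -2.05 for Pf4 and -1.84 for Wfdc17, a secreted antimicrobial-type protein. For Ear2, an eosinophil-type ribonuclease, the fitted difference of 10.30 and for Hbb-bs, beta-globin, that of 13.51 rest on zeros, since both genes had no count in Lyve1 macrophages of either COLD library, and such a fitted value is no bound. Ear2 stood at 57.5 and 116 CPM at RT and 184 and 434 CPM after cold in members. Hbb-bs was also at 0 in members of C57BL/6J COLD replicate 1 and at 3870 CPM in replicate 2.

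In 3 of 48 groups of values examined, each over the 4 RT or the 4 COLD libraries, 1 library stood far from the others. Chance gives about 1 in 20. All 3 were COLD groups, although RT and COLD groups were equal in number. KO COLD had 33.0 CPM of Cdca3 (79.9 to 84.5 CPM in the other COLD libraries) and 29.4 CPM of Gm3448, and C57BL/6J COLD replicate 2 had 3.27 CPM of Il1rl1.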

How the results depend on the processing

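The share of members kept its direction under thinning, a stricter signature, other cell limits, no doublet-score tail and log2 shares. Leaving out 1 library gave cold differences of -8.44 to -5.82 points of Lin+ cells and -52.6 to -43.7 points of C1q macrophages, each with p = 0.0571 by exact permutation, the smallest that 7 libraries allow. The 776 genes called for cold in C57BL/6J members became 380 with DESeq2, 1223 without the low-count filter and 54 with thinned cells, and 116 to 387 with 1 library left out (116 without RT 1, 387 without RT 2, 169 without COLD 1, 151 without COLD 2). The 53 called for CL became 335 without the filter, 14 with a signature sum of at least 4 and 9 with thinned cells, and 0 to 375 with 1 library left out (32 without RT 2). The 2497 called over both lines became 345 with thinned cells, 1260 without the line term and 1021 with version 2 libraries only, an alternative chosen after seeing the data, and 1387 (without WT COLD) to 2578 with 1 library left out (1549 without KO RT). The 66 genes of the class by treatment term became 110 without the filter and 10 with thinned cells, and 43 (without RT 1) to 95 with 1 library left out. Hba-a2, alpha-globin, reversed in that term to -3.53 without COLD replicate 2. Other causes of these shifts were not tested.

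With the replicate number, which marks an experiment, as a block, 913 genes were called for cold and 136 for CL, and 1673 over both lines with the RT and COLD pairs as the block. Apart from the 19 list genes that lost the call over both lines, the block changed no call of a named gene or a called list gene in the cold, CL and both-line comparisons. It was not run for the class by treatment term, where each library is already a block. Over 292 results for single genes and all alternatives, 2960 values kept direction and side of the threshold, 771 lost the call and 1 reversed. COLD sums of 60 and 40 cells limit what low genes can show.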
